A study of Mus musculus with 4 samples.

Results

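Nrf2, encoded by Nfe2l2, is a transcription factor of the antioxidant response, and 10 genes of its circuit were followed here in mouse lung lymphatic endothelium, the lining of lymphatic vessels. They were chosen by name, 5 as parts of the regulatory machinery (Nfe2l2, Keap1, Bach1, Mafg and Mafk) and 5 as targets (Nqo1, Gclc, Gclm, Txnrd1 and Srxn1). All 10 were among the 24421 rows of the count table, and all 10 passed the filter on low counts. The tested libraries, labelled Jun-cKO, came from mice of the genotype Prox1-CreER;Junf/f;Rosa26-mTmG, in which Cre can act on both floxed Jun alleles. The Jun-Ctrl libraries came from Prox1-CreER;Junf/+;Rosa26-mTmG mice, which also carry the Cre and 1 floxed allele, so neither group lacks Cre. Each group had 2 libraries (n = 2 throughout), named replicate 1 and replicate 2, the second being the one with the word replicate in its title. Lungs of postnatal day 0 pups were pooled, 3 to 5 mice a group, and cells negative for CD45 and positive for CD31 and GFP were sorted.

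The Cre is driven by Prox1, a gene of lymphatic identity, so deletion is restricted to cells that use it. The design text names Prox1-GFP lungs, while the genotype carries the mTmG reporter, whose GFP appears after Cre has acted. It also says that cells were combined within a group ahead of amplification, and p-values therefore cover no more than library-to-library spread, possibly technical. The total count was 15558476 and 6911821 in Jun-cKO-labelled libraries and 16037416 and 6483514 in Jun-Ctrl libraries. The targeted gene did not follow its label. Jun stood at 524 and 475 CPM (read counts normalised to library size, with TMM scaling) in Jun-cKO-labelled libraries, against 472 and 433 CPM in Jun-Ctrl libraries (log2 fold change 0.14 with an SE of 0.12, adjusted p = 0.354). The libraries are therefore called Jun-cKO-labelled, and every direction rests on that label. Which part of Jun is floxed is not given in the sources used here, and counts are per gene.

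In the absence of stress, Keap1 holds Nrf2 in the cytoplasm and hands it to a Cul3 ubiquitin ligase for destruction. Oxidants and electrophiles modify Keap1, and Nrf2 then enters the nucleus and binds antioxidant response elements as a dimer with a small Maf protein such as Mafg or Mafk. Bach1, a haem-regulated repressor, uses the same small Maf partners and competes for the same elements. The core of that element resembles the AP-1 site, which Jun and Fos proteins bind.

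The promoter letters show where the binding sites of the circuit and of AP-1 lie close to the start of these genes. Promoter windows from RefSeq (GRCm38.p6), 250 bases before to 50 bases after a gene's start, were found for 9 of the 10 genes, in 11 windows, and not for Gclc. They were searched on both strands for the antioxidant response element core TGACNNNGC and for the AP-1 site TGANTCA, which reads the same on either strand. Some letters can match both motifs, but no matches of the 2 motifs overlapped in these windows. In Srxn1, the AP-1 sites lie at -102 to -96 and -45 to -39, and the element core at 29 to 37. The AP-1 site at -45 to -39 runs into GC but does not match the element core. The element core was found for 6 of the 9 genes (Nfe2l2, Mafg, Mafk, Gclm, Txnrd1 and Srxn1), against 14% of all 27025 genes with a window. The AP-1 site was found for 1 of the 9, Srxn1, against 8.97% of all genes. A match is a run of letters and not a shown binding site. The windows of Keap1, Bach1 and Nqo1 held neither motif. The 250 bases before the start are shown for the target that rose, for Nfe2l2, for both small Maf genes and for a target that was not called, with motif letters in capitals.
Srxn1, chr2:152105274-152105523, plus strand: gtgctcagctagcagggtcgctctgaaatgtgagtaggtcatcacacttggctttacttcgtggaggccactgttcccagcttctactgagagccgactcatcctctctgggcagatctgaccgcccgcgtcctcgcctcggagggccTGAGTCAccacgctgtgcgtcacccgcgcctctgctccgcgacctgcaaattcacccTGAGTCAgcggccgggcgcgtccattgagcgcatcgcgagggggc
Nfe2l2, chr2:75704664-75704913, minus strand: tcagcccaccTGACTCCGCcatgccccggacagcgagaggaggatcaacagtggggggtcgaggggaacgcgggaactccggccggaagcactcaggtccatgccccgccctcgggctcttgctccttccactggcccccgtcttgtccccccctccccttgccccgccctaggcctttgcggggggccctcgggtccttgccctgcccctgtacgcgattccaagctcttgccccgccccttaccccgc
Mafg, chr11:120633548-120633797, minus strand: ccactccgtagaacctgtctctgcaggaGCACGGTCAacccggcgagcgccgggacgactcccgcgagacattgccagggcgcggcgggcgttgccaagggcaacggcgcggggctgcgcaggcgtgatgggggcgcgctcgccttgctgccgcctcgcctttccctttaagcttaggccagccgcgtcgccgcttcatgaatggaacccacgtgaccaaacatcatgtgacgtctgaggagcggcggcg
Mafk, chr5:139791286-139791535, plus strand: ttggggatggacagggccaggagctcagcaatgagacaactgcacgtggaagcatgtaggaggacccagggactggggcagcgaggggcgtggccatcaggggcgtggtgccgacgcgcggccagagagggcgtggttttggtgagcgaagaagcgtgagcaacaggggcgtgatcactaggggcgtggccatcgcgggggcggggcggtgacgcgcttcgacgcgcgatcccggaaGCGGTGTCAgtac
Gclm, chr3:122245307-122245556, plus strand: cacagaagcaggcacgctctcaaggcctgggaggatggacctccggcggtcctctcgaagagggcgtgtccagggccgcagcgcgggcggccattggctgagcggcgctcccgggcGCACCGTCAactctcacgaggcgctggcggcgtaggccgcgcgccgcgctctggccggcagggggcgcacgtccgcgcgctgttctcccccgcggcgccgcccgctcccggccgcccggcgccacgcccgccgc

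In these windows Srxn1 carries the letters TGAGTCA 2 times, at -102 to -96 and at -45 to -39 from its start, and an element core, TGACCTAGC, on the other strand after the start. The element core of Nfe2l2 reads TGACTCCGC on the gene's own strand at -240 to -232. On the other strand, the core reads TGACCGTGC in Mafg, TGACACCGC in Mafk and TGACGGTGC in Gclm. No letters outside these 250 and 50 bases were searched, so distal elements were not analysed here.

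Regulators and targets of the circuit were tested between the groups. All 5 regulatory genes passed the test, with Nfe2l2 and Bach1 higher and Keap1, Mafg and Mafk lower, while of the 5 targets only Srxn1 passed, and it rose. Calls were made with edgeR's quasi-likelihood test at 0.05 after Benjamini-Hochberg adjustment over all 12656 tested genes. By that rule 41.5% of all tested genes were called, 19% higher and 22.5% lower, so 6 called of 10, 3 higher and 3 lower, is to be read against a comparison in which many genes were called. The median log2 fold change of the 10 was -0.03, beside 0.01 over all tested genes. With a fold of at least 1.5 also required, 3 of the 10 were called (Srxn1 higher, Keap1 and Mafg lower), beside 25.5% of all tested genes, 8.23% higher and 17.2% lower.

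**Figure D1:**
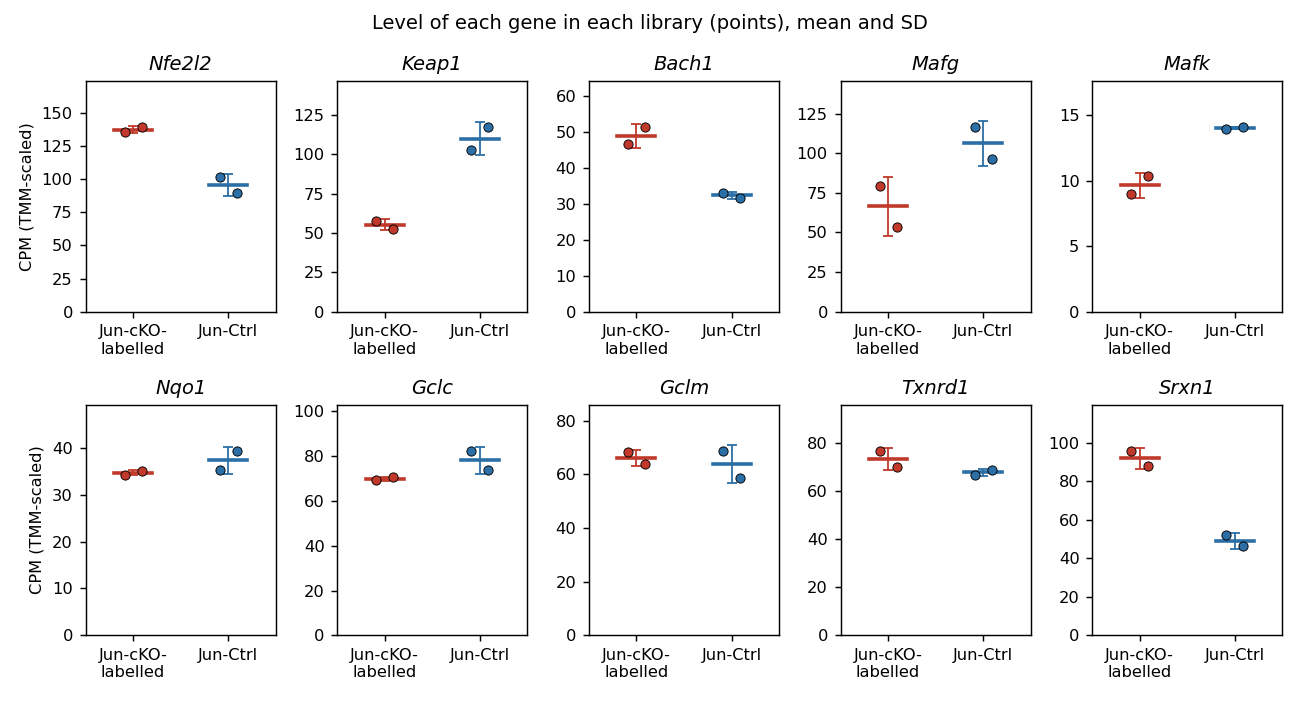
CPM of each of the 10 genes in each library, with 2 Jun-cKO-labelled libraries (red) left of 2 Jun-Ctrl libraries (blue); lines are group means and bars SD. The groups are well apart for Nfe2l2, Keap1, Bach1 and Srxn1, and Gclm is the gene whose libraries overlap between groups. The groups do not overlap in 71.3% of all tested genes either, so nothing is read from such a separation.

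Nfe2l2, the gene of the transcription factor itself (chromosome 2, 75675513 to 75704641, minus strand, GRCm38), stood at 135 and 139 CPM in Jun-cKO-labelled libraries, against 101 and 89.5 CPM in Jun-Ctrl libraries. Both Jun-cKO-labelled libraries were above both Jun-Ctrl libraries. It rose 1.43-fold (log2 fold change 0.52 with an SE of 0.12, adjusted p = 0.00037), with a 95% interval of the fold of 1.22 to 1.68. Keap1, the sensor that limits Nrf2 protein (chromosome 9, 21229730 to 21239361, minus strand), stood at 57.7 and 52.7 CPM in Jun-cKO-labelled libraries, against 103 and 117 CPM in Jun-Ctrl libraries. The groups did not overlap. Keap1 fell 1.98-fold (log2 fold change -0.98 with an SE of 0.12, adjusted p = 7.59e-09), and the interval of the log2 fold change ran from -1.23 to -0.74. Between libraries of the same replicate mark the log2 ratio was -0.83 for replicate 1 and -1.15 for replicate 2.

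Per kilobase of gene length, Nfe2l2 was 4.25 and 4.78 times Keap1 in Jun-cKO-labelled libraries, against 1.79 and 1.38 times in Jun-Ctrl libraries. The ratio itself was not tested, and the calls are those of its 2 genes. It is a ratio of RNA levels, and Nrf2 activity depends largely on protein stability, which counts do not measure. The ratio was not recomputed after the correction for GC content given below. Under that correction the log2 fold change was -0.59 for Keap1 and 0.44 for Nfe2l2, against -0.98 and 0.52 as counted.

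Bach1, the repressor (chromosome 16, 87698945 to 87733346, plus strand), moved in the same direction as Nfe2l2. It stood at 46.5 and 51.2 CPM in Jun-cKO-labelled libraries, against 33.1 and 31.7 CPM in Jun-Ctrl libraries, without overlap. It rose (log2 fold change 0.58 with an SE of 0.14, adjusted p = 0.000614, fold interval 1.24 to 1.82). The activator and the repressor kept a similar proportion, with Nfe2l2 at 6.91 and 6.45 times Bach1 per kilobase in Jun-cKO-labelled libraries and 7.28 and 6.71 times in Jun-Ctrl libraries, and these values overlap between groups.

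The small Maf proteins have a DNA-binding domain and no activation domain of their own, and both members of the family followed here fell. Mafg (chromosome 11, 120625117 to 120633600, minus strand) stood at 79.4 and 53.4 CPM in Jun-cKO-labelled libraries, against 116 and 96.2 CPM in Jun-Ctrl libraries. The groups did not overlap, but the Jun-cKO-labelled libraries differed from each other by 0.57 on the log2 scale, the widest gap inside that group among the 10 genes. Mafg fell 1.59-fold (log2 fold change -0.67 with an SE of 0.13, adjusted p = 7.9e-05). The call ended without Jun-Ctrl replicate 1 (adjusted p = 0.0589, and 1.16e-09 to 0.0589 across 15 alternatives), and the log2 fold change was -0.42 without Jun-cKO-labelled replicate 2 and -1.003 without Jun-cKO-labelled replicate 1.

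Mafk (chromosome 5, 139791513 to 139802653, plus strand) had the lowest level per kilobase of the 10 genes in both groups, and stood at 8.98 and 10.3 CPM in Jun-cKO-labelled libraries, against 13.9 and 14.1 CPM in Jun-Ctrl libraries. These values rest on 137 and 70 counts in Jun-cKO-labelled libraries and on 230 and 92 counts in Jun-Ctrl libraries. The groups did not overlap. Mafk fell 1.47-fold (log2 fold change -0.56 with an SE of 0.20, adjusted p = 0.0189), a call that did not hold up well. It ended in DESeq2 (adjusted p = 0.113), after a correction for GC content (0.276, and 0.232 with the replicate mark as a block), without Jun-cKO-labelled replicate 1 (0.136) and without Jun-Ctrl replicate 1 or 2 (0.111 or 0.0673). Over all 15 alternatives its adjusted p ran from 0.00988 to 0.276.

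Maff, the third small Maf, was not called. It stood at 177 and 180 CPM in Jun-cKO-labelled libraries, against 169 and 170 CPM in Jun-Ctrl libraries (log2 fold change 0.07 with an SE of 0.11, adjusted p = 0.628). It was called higher after the GC correction (log2 fold change 0.45, adjusted p = 0.000688, and 1.64e-05 to 0.911 across 15 alternatives). Summed per kilobase, the 3 small Maf genes were at 119.8 and 106 CPM per kilobase in Jun-cKO-labelled libraries, against 141 and 129 CPM per kilobase in Jun-Ctrl libraries. That sum was 2.18 and 1.88 times the level of Nfe2l2 in Jun-cKO-labelled libraries, against 3.43 and 3.57 times in Jun-Ctrl libraries. Set against Bach1 it was 15.1 and 12.1 times in Jun-cKO-labelled libraries, against 25.0 and 23.9 times in Jun-Ctrl libraries. These ratios were not tested and not recomputed after the GC correction.

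**Figure D2:**
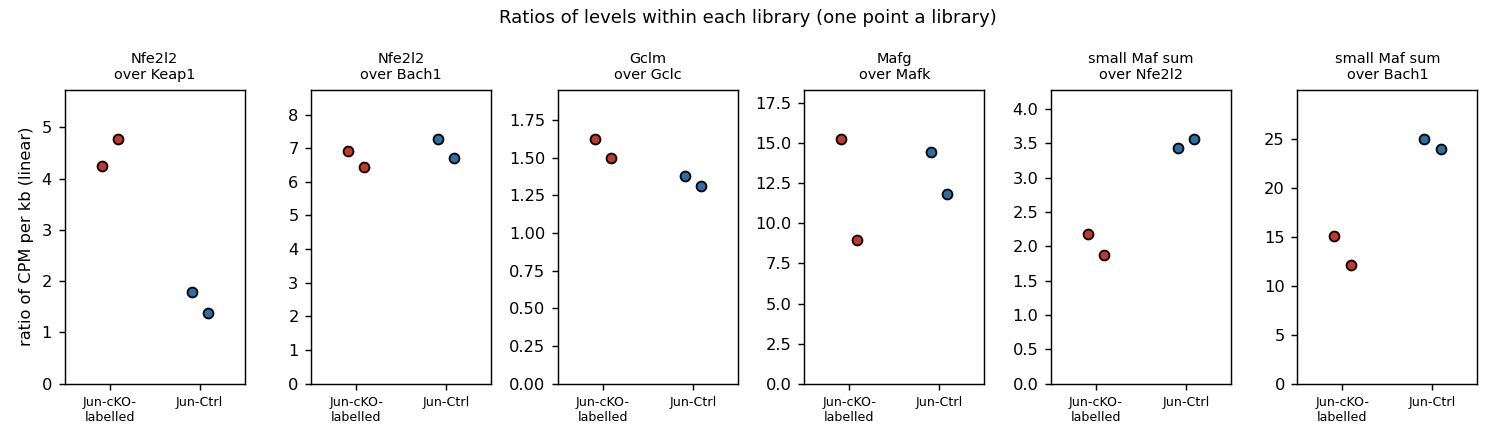
Ratios of levels (CPM per kilobase, linear scale) within each library, Jun-cKO-labelled (red) left of Jun-Ctrl (blue), 1 point a library. None of the ratios was tested or recomputed after the GC correction. Nfe2l2 over Keap1 is 4.25 and 4.78 in Jun-cKO-labelled libraries and 1.79 and 1.38 in Jun-Ctrl libraries, while Nfe2l2 over Bach1 overlaps between the groups.

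Among the 5 targets followed here, only Srxn1 was called. Srxn1 encodes sulfiredoxin, which repairs overoxidised peroxiredoxins (chromosome 2, 152105516 to 152111376, plus strand). It stood at 95.7 and 87.8 CPM in Jun-cKO-labelled libraries, against 51.9 and 46.2 CPM in Jun-Ctrl libraries. Both Jun-cKO-labelled libraries were far above both Jun-Ctrl libraries. Srxn1 rose 1.86-fold (log2 fold change 0.90 with an SE of 0.12, adjusted p = 8.65e-08), with a fold interval of 1.57 to 2.22. The log2 ratio was 0.88 within replicate 1 and 0.93 within replicate 2, and the call held in all 15 alternatives, with log2 fold changes of 0.80 to 1.05. Of the 9 genes with a window, only Srxn1 carries AP-1 letters, beside 8.97% of all genes with a window. Whether these letters have a part in its rise was not tested.

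The other 4 targets were not called. Their intervals cover no more than the spread between libraries, possibly technical, and set no limit on a change between mice. Nqo1, a quinone reductase often used as a readout of Nrf2 (chromosome 8, 107388225 to 107403206, minus strand), stood at 34.3 and 35.0 CPM in Jun-cKO-labelled libraries, against 35.2 and 39.3 CPM in Jun-Ctrl libraries. All 4 libraries were close, with both Jun-cKO-labelled libraries slightly below the Jun-Ctrl libraries. The log2 fold change was -0.10 (with an SE of 0.14, adjusted p = 0.607), with a fold interval of 0.766 to 1.14.

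Gclc and Gclm encode the catalytic and the modifier subunit of glutamate-cysteine ligase, the rate-limiting enzyme of glutathione synthesis. Gclc (chromosome 9, 77754535 to 77794485, plus strand) stood at 69.3 and 70.6 CPM in Jun-cKO-labelled libraries, against 82.4 and 73.9 CPM in Jun-Ctrl libraries. Both Jun-cKO-labelled libraries were below both Jun-Ctrl libraries, by less than the test could call (log2 fold change -0.17 with an SE of 0.12, adjusted p = 0.278, fold interval 0.752 to 1.06). Gclm (chromosome 3, 122245557 to 122270732, plus strand) stood at 68.2 and 63.9 CPM in Jun-cKO-labelled libraries, against 68.7 and 58.8 CPM in Jun-Ctrl libraries. The groups overlapped (log2 fold change 0.05 with an SE of 0.13, adjusted p = 0.798, fold interval 0.867 to 1.23), and the sign depended on the scaling and on single libraries. The RNA ratio of modifier to catalytic subunit per kilobase was 1.63 and 1.498 in Jun-cKO-labelled libraries, against 1.38 and 1.31 in Jun-Ctrl libraries. That ratio was not tested and not recomputed after the GC correction.

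Txnrd1, the cytosolic thioredoxin reductase (chromosome 10, 82833951 to 82897712, plus strand), stood at 76.8 and 70.3 CPM in Jun-cKO-labelled libraries, against 66.8 and 68.8 CPM in Jun-Ctrl libraries. Both Jun-cKO-labelled libraries were above the Jun-Ctrl libraries by a small margin. The log2 fold change was 0.12 (with an SE of 0.12, adjusted p = 0.437), with a fold interval of 0.919 to 1.29. The groups did not overlap in 9 of the 10 genes, 4 higher and 5 lower, nor in 71.3% of all tested genes (35.4% higher and 35.9% lower), so nothing is read from such a separation. A change of 1.5-fold in either direction lies outside the interval of each of these 4 targets, as far as the spread between these libraries goes.

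**Figure D3:**
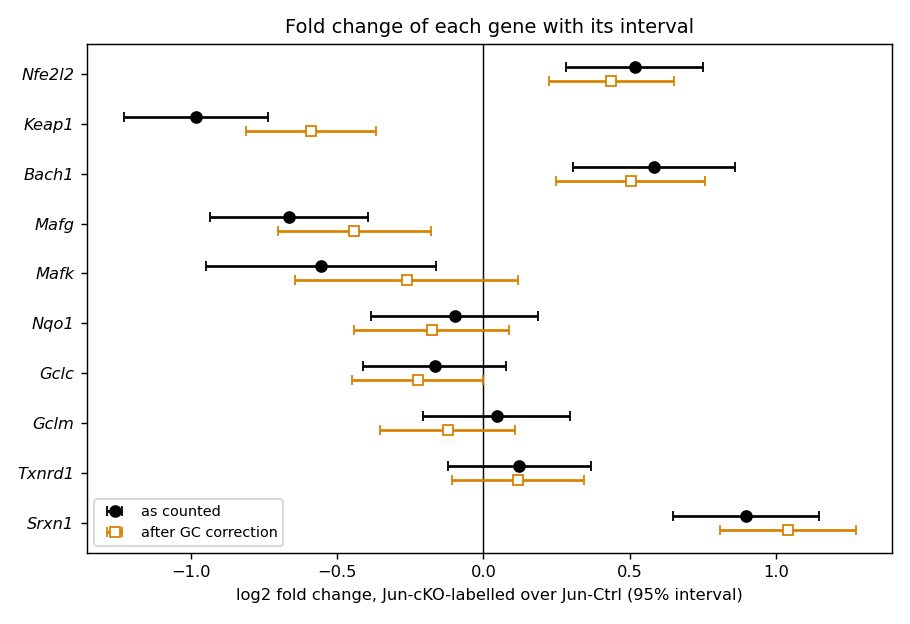
Log2 fold change of the Jun-cKO-labelled over the Jun-Ctrl libraries with its 95% interval for each gene, as counted (black circles) and after correction for GC content (orange squares). The interval as counted excludes 0 for the 5 regulatory genes and Srxn1, while after the correction that of Mafk includes 0 and that of Gclc, which was still not called (adjusted p = 0.102), lies just below it.

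Base composition ran beside these directions. Over all tested genes the log2 fold change fell with transcript GC content (Spearman's rho = -0.34 across 12188 genes, which are not independent replicates). Nfe2l2 and Bach1, which rose, have longest transcripts of 46.8% and 46.7% GC, while Mafg, Mafk and Keap1, which fell, have 54.9%, 56.3% and 58.0%. Genes were put in 10 equal bins by GC content. In the bin with the highest content, where Keap1 belongs, 47.3% of genes were called lower, at a median of -0.45 on the log2 scale. In the bin that holds Nfe2l2, Bach1, Nqo1 and Gclc, 22.5% were called higher and the median was 0.12. After the GC correction Keap1 was at -0.59 on the log2 scale (adjusted p = 5.45e-05) and Mafg at -0.44 (0.00626), both still called lower. Nfe2l2 was at 0.44 (0.00119) and Bach1 at 0.50 (0.00173), both still called higher. Srxn1, at 53.3% GC, went against the trend and was at 1.04 after the correction (adjusted p = 6.17e-09, and 1.82e-20 to 0.000799 across 15 alternatives).

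**Figure D4:**
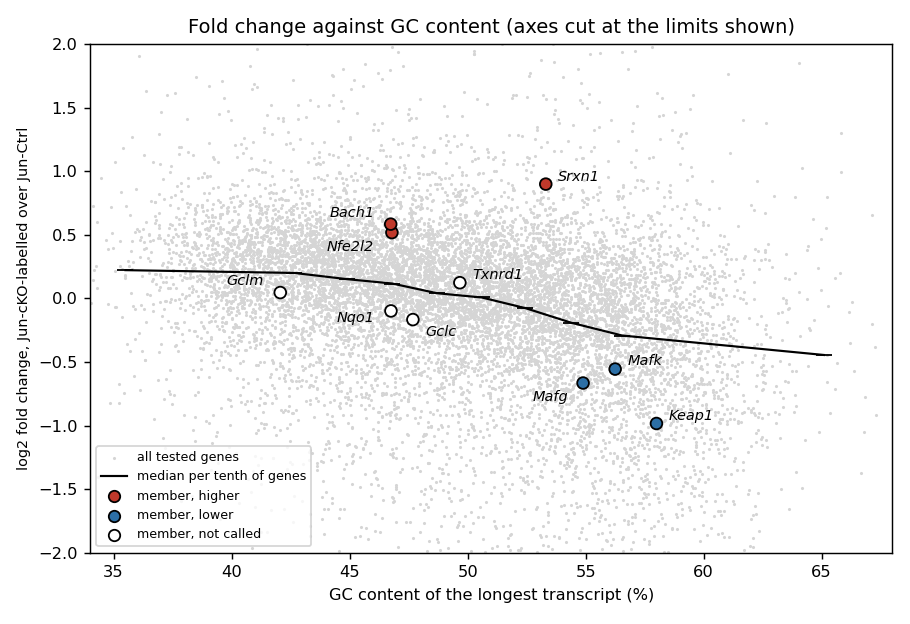
Log2 fold change against the GC content of the longest transcript, with all tested genes in grey (points beyond the axis limits are not drawn), the median of each of 10 bins as a line, and the 10 genes as circles coloured by their call. The 3 genes that fell lie at 54.9% GC or more, and Srxn1 lies high above the line at 53.3%.

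Markers of other cell types differed between the groups. The sum of 10 lung epithelial markers was 146 and 146 CPM in Jun-cKO-labelled libraries, against 1521 and 1578 CPM in Jun-Ctrl libraries, with 10 of 10 lower. The sum of 9 leukocyte markers was 232 and 205 CPM in Jun-cKO-labelled libraries, against 517 and 508 CPM in Jun-Ctrl libraries, with 9 of 9 lower, although the sort removed CD45-positive cells. The sum of 8 mesenchymal markers was 104 and 111 CPM in Jun-cKO-labelled libraries, against 324 and 328 CPM in Jun-Ctrl libraries, with 5 lower. The 7 blood endothelial markers summed to 767 and 842 CPM in Jun-cKO-labelled libraries, against 866 and 890 CPM in Jun-Ctrl libraries, with 2 higher and 2 lower. The lymphatic markers Prox1, Flt4, Lyve1, Pdpn, Reln and Mmrn1 were present in all 4 libraries. Either GFP named above depends on Prox1, so the presence of Prox1 is tied to the sort and is no separate check. The 6 lymphatic markers summed to 17177 and 17788 CPM in Jun-cKO-labelled libraries, against 13061 and 11856 CPM in Jun-Ctrl libraries, with 3 of 6 higher and 1 lower. Much of that sum was Lyve1, at 8641 and 10260 CPM in Jun-cKO-labelled libraries, against 6402 and 5971 CPM in Jun-Ctrl libraries. Flt4 fell (log2 fold change -0.60, adjusted p = 0.000356), and Prox1 was not called (-0.31, adjusted p = 0.0686). Of 5 red cell markers none was tested, and the 3 haemoglobin genes are listed at 0 in every library, from which no limit on red cells is drawn. In such bulk samples fewer cells of a type and less RNA per cell cannot be told apart. The Nrf2 circuit is used by all these cell types. The part of these differences in the changes of the 10 genes, or of the further genes described below, was not tested.

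Levels between genes were compared per kilobase of the authors' gene length; whether reads cover amplified transcripts evenly was not tested. In the Jun-cKO-labelled libraries Nfe2l2 led at 55.6 ± 1.12 CPM per kilobase (SD, n = 2), ahead of Mafg at 40.6 ± 11.2, Srxn1 at 32.6 ± 1.98 and Gclm at 31.9 ± 1.46. Among these 4, only Nfe2l2 was clear of the others, since Mafg, Srxn1 and Gclm overlapped in turn. Next, without overlap, came Nqo1 at 22.3 ± 0.327, Gclc at 20.4 ± 0.256, Txnrd1 at 18.3 ± 1.15, Keap1 at 12.3 ± 0.784, Bach1 at 8.34 ± 0.576 and Mafk at 3.42 ± 0.340 CPM per kilobase. In the Jun-Ctrl libraries Mafg led at 65.0 ± 8.73 CPM per kilobase, ahead of Nfe2l2 at 38.7 ± 3.42 and Gclm at 30.8 ± 3.399, without overlap. Keap1 at 24.6 ± 2.29, Nqo1 at 24.0 ± 1.86 and Gclc at 22.8 ± 1.76 CPM per kilobase overlapped in turn, as did Srxn1 at 17.4 ± 1.44 and Txnrd1 at 16.9 ± 0.366. Bach1 at 5.52 ± 0.167 and Mafk at 4.96 ± 0.0318 were again the lowest. Over all 4 libraries the levels per kilobase ran from the 38.1th percentile of tested genes for Mafk to the 87.1th for Mafg.

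The pattern of Nfe2l2 over the 4 libraries was most like those of Slc10a7, Itfg1 and Slc25a32 among 10036 genes averaging 50 counts or more. The measure was the largest difference in log2 CPM centred on the mean of each gene, at 0.0118, 0.0135 and 0.0146, and over 4 libraries it is a description only. Annotated genes overlap 6 of the 10 genes, among them Sirt7 on the strand of Mafg and Tmem184a opposite Mafk. Without strand, reads in such overlaps cannot be told apart.

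Of 69 further genes linked to Nrf2, 66 were tested, and 16 rose and 18 fell, or 51.5% called beside 41.5% of all tested genes, with a median log2 fold change of 0.08. The counts by function below stand beside 19% of all tested genes called higher and 22.5% called lower, and groups this small show nothing particular by their counts. Among 5 relatives of the regulators, Bach2, a second Bach repressor, rose 1.30-fold to 34.3 ± 3.399 CPM in Jun-cKO-labelled libraries, against 26.3 ± 2.82 CPM in Jun-Ctrl libraries (adjusted p = 0.0395). Nfe2l1, a related factor that controls proteasome genes, fell (log2 fold change -0.32) to 80.2 ± 18.7 CPM, against 101 ± 2.15 CPM in Jun-Ctrl (adjusted p = 0.0393). Both calls were fragile, and adjusted p reached 0.301 for Bach2 and 0.584 for Nfe2l1 over 15 alternatives. The Bach2 call ended in DESeq2 (0.136), with upper-quartile scaling (0.0664), library totals (0.0876) or the 50-count filter (0.0711), without Jun-cKO-labelled replicate 1 and without either Jun-Ctrl library. The Nfe2l1 call ended after the GC correction (log2 fold change -0.11, adjusted p = 0.47, or 0.35 with the block), in DESeq2 (0.129), without Jun-cKO-labelled replicate 2 (-0.10 on the log2 scale) and without either Jun-Ctrl library.

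Of 5 genes that control Nrf2 turnover, 1 rose and 1 fell, or 40% called. Cul3, the scaffold of the ligase that Keap1 serves, rose 1.42-fold to 201 ± 8.73 CPM in Jun-cKO-labelled libraries, against 141 ± 15.1 CPM in Jun-Ctrl libraries (adjusted p = 0.000468). It was at 0.38 on the log2 scale without Jun-Ctrl replicate 2 (adjusted p = 0.0635), and its log2 fold change ranged from 0.27 to 0.61 over 15 alternatives. Gsk3b, a kinase that marks Nrf2 for a second, Keap1-independent ligase, fell 1.55-fold to 107 ± 9.88 CPM, against 167 ± 0.706 CPM in Jun-Ctrl (adjusted p = 1.95e-05).

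Of 22 glutathione genes, 5 rose and 6 fell, or 50% called beside 41.5% of all tested genes, with a median log2 fold change of 0.07. Slc3a2, the heavy chain of the cystine and other amino acid exchangers, rose 1.502-fold to 110.5 ± 20.9 CPM in Jun-cKO-labelled libraries, against 73.6 ± 8.01 CPM in Jun-Ctrl libraries (adjusted p = 0.000189). Slc7a11, the light chain of the cystine exchanger, fell 1.58-fold to 7.05 ± 0.0530 CPM in Jun-cKO-labelled libraries, against 10.9 ± 1.61 CPM in Jun-Ctrl libraries (adjusted p = 0.0108). That call ended in DESeq2 (0.0974) and without Jun-Ctrl replicate 1 (0.223). The glutathione transferases Gstm5 and Gstm1 rose 1.48-fold and 1.36-fold (adjusted p = 0.000845 and 0.00298), and both calls ended without Jun-Ctrl replicate 1 (0.0767 and 0.0636). Their relative Gstm2 fell 2.50-fold (adjusted p = 0.00871), on 19 and 5 counts in Jun-cKO-labelled libraries and 44 and 18 counts in Jun-Ctrl libraries, and that call ended in DESeq2 (0.0978) and without Jun-Ctrl replicate 1 or 2 (0.112 or 0.0543). The other genes of this group that fell were Gpx3, Gpx8, Gstt1 and Glrx, with log2 fold changes between -0.95 (Gstt1) and -0.47 (Glrx). Gstt1 had 20 and 10 counts in Jun-cKO-labelled libraries, against 43 and 18 in Jun-Ctrl libraries (adjusted p = 0.0482). Gpx8 had 37 and 16 counts, against 83 and 18 in Jun-Ctrl libraries (adjusted p = 0.0457). Both calls were close to the threshold. Gsr, glutathione reductase, rose 1.29-fold (adjusted p = 0.0481), a call also close to the threshold. Gsr and these other genes that fell were not followed gene by gene under the alternatives. Gstm genes are near copies of each other, so the split of reads between them is uncertain. Abcc4, an exporter of conjugates and nucleotides, rose 2.32-fold to 5.96 ± 0.550 CPM, against 2.44 ± 0.415 CPM in Jun-Ctrl (adjusted p = 0.000892).

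Of 11 thioredoxin and peroxiredoxin genes, 3 rose and 3 fell, or 54.5% called beside 41.5% of all tested genes, with a median log2 fold change of 0.17. The peroxiredoxin Prdx5 rose 1.72-fold to 259 ± 24.2 CPM in Jun-cKO-labelled libraries, against 151 ± 18.2 CPM in Jun-Ctrl libraries (adjusted p = 6.15e-07). The mitochondrial Prdx3 rose 1.57-fold (adjusted p = 0.000821), a call that ended without Jun-Ctrl replicate 2 (0.0625). Prdx6 fell 1.40-fold to 111 ± 7.001 CPM, against 155 ± 13.99 CPM in Jun-Ctrl (adjusted p = 0.0007), and the mitochondrial thioredoxin Txn2 fell 1.49-fold (adjusted p = 0.000471).

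NADPH is the reductant used by thioredoxin and glutathione reductases. Of 6 tested genes of NADPH supply and the pentose phosphate pathway, 4 fell, beside 22.5% of all tested genes called lower. Their median log2 fold change was -0.33. The other 2, G6pdx (log2 fold change -0.08, adjusted p = 0.703) and Taldo1 (0.19, adjusted p = 0.202), were not called. Me1, malic enzyme, fell 1.47-fold to 49.3 ± 1.40 CPM in Jun-cKO-labelled libraries, against 72.6 ± 0.719 CPM in Jun-Ctrl libraries (adjusted p = 0.000347). Idh1, cytosolic isocitrate dehydrogenase, fell 1.48-fold to 40.8 ± 0.143 CPM, against 59.8 ± 6.53 CPM in Jun-Ctrl (adjusted p = 0.000573), a call that ended without Jun-Ctrl replicate 1 (0.0588). Tkt and Pgd of the pentose phosphate pathway fell 1.24-fold and 1.27-fold (adjusted p = 0.0253 and 0.0261). Each of these 2 calls ended under 5 of 15 alternatives, up to an adjusted p of 0.199 for Pgd and of 0.35 for Tkt, reached after the GC correction at a log2 fold change of -0.12. The Pgd call ended whichever of the 4 libraries was left out, and the Tkt call with any but Jun-cKO-labelled replicate 1 left out.

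Of 5 haem and iron genes, 1 fell and 1 rose, or 40% called. Hmox1, the haem-degrading enzyme that Nrf2 induces and Bach1 represses, had the largest change of the wider list, at 26.7 and 23.3 CPM in Jun-cKO-labelled libraries, against 161 and 147 CPM in Jun-Ctrl libraries. It fell 6.09-fold (adjusted p = 5.21e-22). The epithelial, leukocyte and mesenchymal marker sums were also lower in Jun-cKO-labelled libraries, and their part in the fall of Hmox1 was not tested. Blvrb, a biliverdin reductase, rose 1.31-fold (adjusted p = 0.0165), a call that ended in DESeq2 (0.0654), without Jun-cKO-labelled replicate 1 (0.119) and without Jun-Ctrl replicate 1 or 2 (0.0888 or 0.145).

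Of 11 detoxification genes 8 were tested, with 3 higher and 2 lower and a median log2 fold change of 0.29. Ptgr1, a reductase of lipid aldehydes and prostaglandins, rose 1.98-fold to 8.26 ± 0.842 CPM in Jun-cKO-labelled libraries, against 4.08 ± 0.146 CPM in Jun-Ctrl libraries (adjusted p = 0.00134). Nqo2, the relative of Nqo1, rose 1.64-fold to 14.6 ± 0.292 CPM, against 8.74 ± 0.676 CPM in Jun-Ctrl (adjusted p = 0.00276). Aldh2, the mitochondrial aldehyde dehydrogenase, fell 1.82-fold to 81.4 ± 0.711 CPM, against 149 ± 22.9 CPM in Jun-Ctrl (adjusted p = 1.1e-07). The weakly expressed Aldh1a1 fell 2.68-fold (adjusted p = 0.00282), a call that ended in DESeq2 (0.077), without Jun-cKO-labelled replicate 1 (0.204, at -0.77 on the log2 scale) and without Jun-Ctrl replicate 1 (0.109).

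Of 4 genes that remove superoxide and peroxide, 2 rose. Cat, catalase, rose 1.44-fold to 65.5 ± 8.33 CPM in Jun-cKO-labelled libraries, against 45.3 ± 6.32 CPM in Jun-Ctrl libraries (adjusted p = 0.00126), and was at 0.0865 without Jun-Ctrl replicate 2. Sod2, the mitochondrial superoxide dismutase, rose 1.30-fold (adjusted p = 0.00901), a call that ended after the GC correction (0.135), without Jun-cKO-labelled replicate 1 (0.147) and without Jun-Ctrl replicate 1 or 2 (0.0518 or 0.205).

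**Figure D5:**
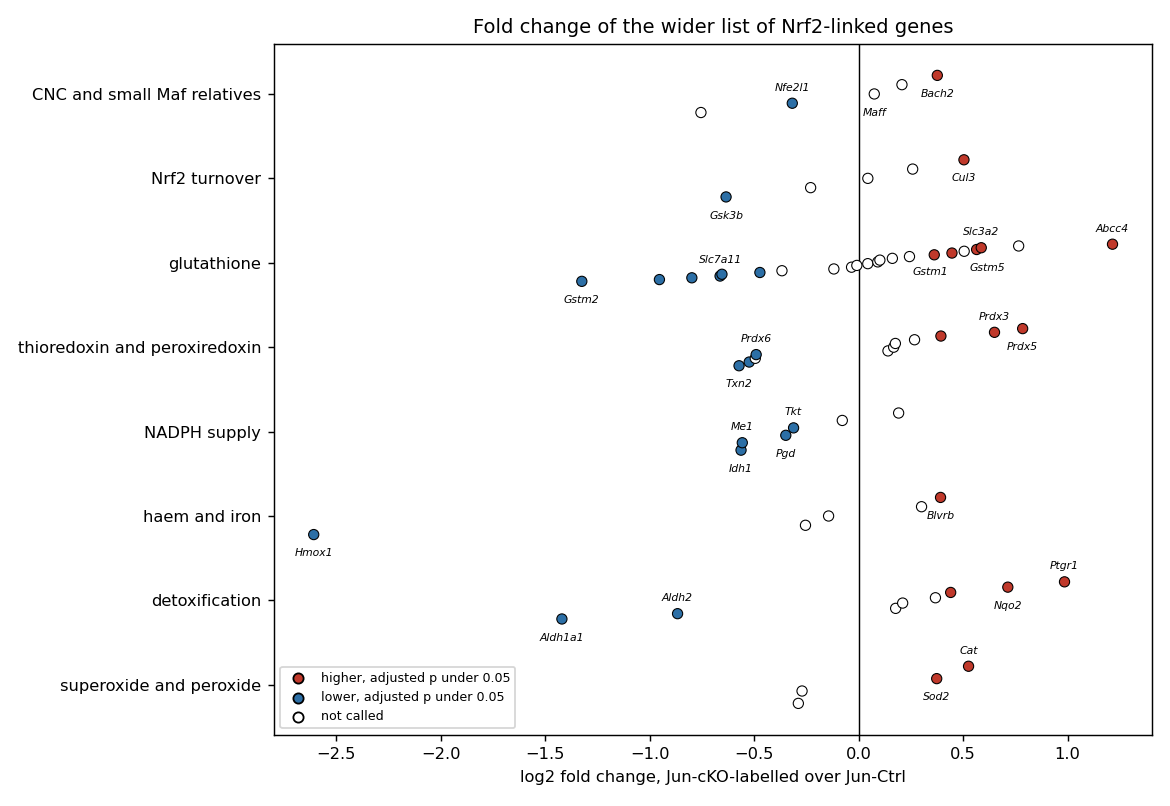
Log2 fold change, Jun-cKO-labelled over Jun-Ctrl, of the 66 tested genes of the wider list, by function, with red for called higher, blue for called lower and white for not called; vertical offsets only separate the points. Hmox1 lies far to the left at -2.61. The NADPH supply group, which includes pentose phosphate pathway genes, has 4 lower calls among 6 genes, beside 22.5% of all tested genes. A group this small shows nothing particular by its count.

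Without Jun-Ctrl replicate 1, 15 genes of the wider list were called and without Jun-Ctrl replicate 2, 21, so the count of 34 leans on both Jun-Ctrl libraries. Of the 10 genes themselves, Nfe2l2, Keap1, Bach1 and Srxn1 kept their call and direction in all 15 alternatives. In the 4 of these that leave out a library, 1 group has a single library, whose spread is taken from the pair of the other group.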

How the data were processed

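Whole-gene RNA levels were measured in 4 libraries, 2 a group. In the deposited table values are unnormalised read counts for each gene, beside its length; STAR 2.7.2a, featureCounts 1.6.4, edgeR 3.28.1 and mm10 are named, without roles, per the submitters' processing notes. Per the labels' protocols, RNA of 10000 sorted cells was amplified before library making, and read length was 79 bases. Strand setting and annotation: not given in the sources used here. Reads were not tied to single molecules after amplification.

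The quasi-likelihood test of edgeR 4.0.16 (glmQLFit, glmQLFTest; R 4.3.3) was run on counts after TMM and filterByExpr, which left 12656 genes, with no block, adjusted over all of them. Standard errors are the log2 fold change divided by the root of F. Intervals are 95% and come from the same fit, so they rest on the spread between libraries. The tests were also tried on simulated counts, drawn with the spread of these libraries and without a trend on GC content. That trial cannot show whether the calls in these data are sound. Alternatives were other scalings, DESeq2 1.42.0, the likelihood ratio test, limma-voom (limma 3.58.1), other filters and thresholds, leaving out single libraries (the lone library of that group is then assumed to vary like the other pair), a block for the replicate mark, and a GC correction (a loess fit with span 0.5 of log2 deviations in every library against the GC content of the longest GENCODE M21 transcript, available for 96.3% of tested genes). Libraries of a group differed beyond sampling noise (median chi-square per gene 1.51 in the Jun-cKO-labelled and 1.26 in the Jun-Ctrl pair, against 0.455).

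The 10 genes, the wider list, the markers, motifs and tests were chosen with earlier results of these data known. Beyond the 10, the text names Jun, Hmox1, Maff and, for each group of the wider list, the called genes with the smallest p, at most 4. Slc7a11, Gstm2, the other glutathione genes that fell and Gsr, which rose, were added after their values were seen. So were G6pdx and Taldo1, which were not called.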

Additional observations from a re-analysis of the deposited data

How the results depend on the processing

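Of 150 values of the 10 genes under 15 alternatives, 138 kept their direction and side of the threshold, 7 lost a call (Mafg 1, Mafk 6) and 5 changed sign. All 5 were of Gclm, which was not called under any: -0.011 with library totals (adjusted p = 0.954), -0.12 after GC correction (0.413), -0.12 with that and the block (0.375), -0.008 without Jun-cKO-labelled replicate 1 and -0.075 without Jun-Ctrl replicate 2 (range -0.075 to 0.16 with single libraries left out). The number called was 3 with a fold of at least 1.5 and 4 to 6 with single libraries left out, against 6. For the wider list it was 22 in DESeq2 (13 higher, 9 lower), 15 with a fold of at least 1.5 and 15 to 29 with single libraries left out, against 34. Over all genes it was 3224 with a fold of at least 1.5 and 2992 to 4794 with single libraries left out, against 5251. Jun was called higher after GC correction (log2 fold change 0.41, adjusted p = 0.00326) and with the block added (0.41, 0.000114), against a range of 0.000114 to 0.813 over 15 alternatives. In all these cases the cause was not tested beyond what the setting itself changes (fewer libraries, a higher threshold).

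The replicate mark shared by 2 libraries is no stated batch, and deviations of libraries with the same mark correlated at 0.0963 across 10175 genes. With the mark as a block, 6 of the 10 genes, 36 of the wider list and 5426 of all genes were called. Among the 27 other named genes followed under the alternatives, 354 of 402 values kept direction and side, 46 lost a call, 2 gained it and 0 changed sign. A count as low as that of Mafk limits its precision, and with 2 libraries a group the intervals are wide. No scaling moved the median of all genes by more than 0.1 on the log2 scale.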
